A study of Mus musculus with 2 samples.

Results

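The expression of 9 genes that regulate connective tissue and tendon in the limb was compared between the distal and the proximal side of mouse limb-mesenchymal organoids. The genes were the odd-skipped zinc-finger factors Osr1 and Osr2, the tendon factors Scx and Mkx, the early B-cell factors Ebf1, Ebf2 and Ebf3, and the PDGF receptors Pdgfra and Pdgfrb. They were selected by gene symbol from the authors' deposited table of the comparison, and all 9 were among its 13916 protein-coding genes.

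Embryonic limb mesenchymal cells of Slc:ICR mice were cultured for 48 h with Fgf8b and Wnt3a to form organoids. On day 2 the organoids, 5 in all from 4 cultures, were frozen. Both sides therefore shared the strain, the growth factors and the time. Parts of the sections were captured by photo-isolation chemistry, in which ultraviolet light releases cDNA from chosen areas of a tissue section. The distal and the proximal group each held 1 library, pooled from 5 barcoded regions, so an effect of the side and an effect of the library cannot be told apart. The labels do not say which region came from which organoid. The deposited standard errors and p-values treat the regions as replicates, as do the permutation p-values below. Both therefore measure only the spread between regions of a library, not between independent libraries. The permutation p-values are not adjusted over the genes. The labels call the cells limb mesenchymal cells. The mesenchyme markers Prrx1 and Twist1 had deposited means of 159 and 74.0 normalized counts. Of the surface ectoderm, Krt14 and Cdh1 had 1 count each over all 10 regions. Trp63 had 3 counts, all in proximal, and Epcam had 2 in distal and 4 in proximal.

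The deposited means rest on size factors that sum to 2.93 over the distal and 9.65 over the proximal regions, so distal values are the less precise. Per region, these factors correspond to about 46991 to 118978 counts in distal and 214774 to 345649 in proximal. Every distal region was thus shallower than every proximal one, so the permutation tests below cannot separate depth from side. In a gene with few counts, zeros fall more easily on the distal side. A count of 0 over the distal regions allows up to 3 counts, or a normalized mean of 1.02, while the same limit in proximal is 0.311. These limits, and the count intervals below, cover counting error only. In such bulk captures, fewer cells of a type and less RNA per cell cannot be told apart.

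Osr1 and Osr2 are transcriptional regulators of the fibroblasts that form irregular connective tissue, including the connective tissue within muscle, and both also act in limb joint formation. Scx encodes a basic helix-loop-helix factor that marks tendon progenitors, and Mkx a homeobox factor needed for tendon collagen production. The Ebf proteins are helix-loop-helix zinc-knuckle factors used in B cells, fat, bone and limb fibroblasts. Pdgfra and Pdgfrb are receptor tyrosine kinases for platelet-derived growth factors. The first is widespread in embryonic mesenchyme and the second is known for its role in pericytes and other mural cells.

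Of the 9 genes, 4 fell under the adjusted p limit of 0.05 in the table the authors deposited, namely Osr2, Ebf1, Ebf3 and Pdgfra. All 4 were higher in proximal. Over the whole table, 0.977% of genes passed in either direction, with 0.395% being higher in distal and 0.582% in proximal. The 9 genes were chosen with earlier results of these data known, so a contrast with the whole table is not an independent test. The 4 called genes also had means above that of the median gene. The remaining 5 genes, Osr1, Scx, Mkx, Ebf2 and Pdgfrb, did not pass, and 2 of them, Osr1 and Ebf2, had an unadjusted p under 0.05, as did 6.07% of all genes. The median deposited log2 change of the 9 genes, distal over proximal, was -1.83, against 0.07 over all genes. The plot of the deposited log2 changes shows the 4 called genes left of 0 with intervals that do not reach it.

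**Figure D1:**
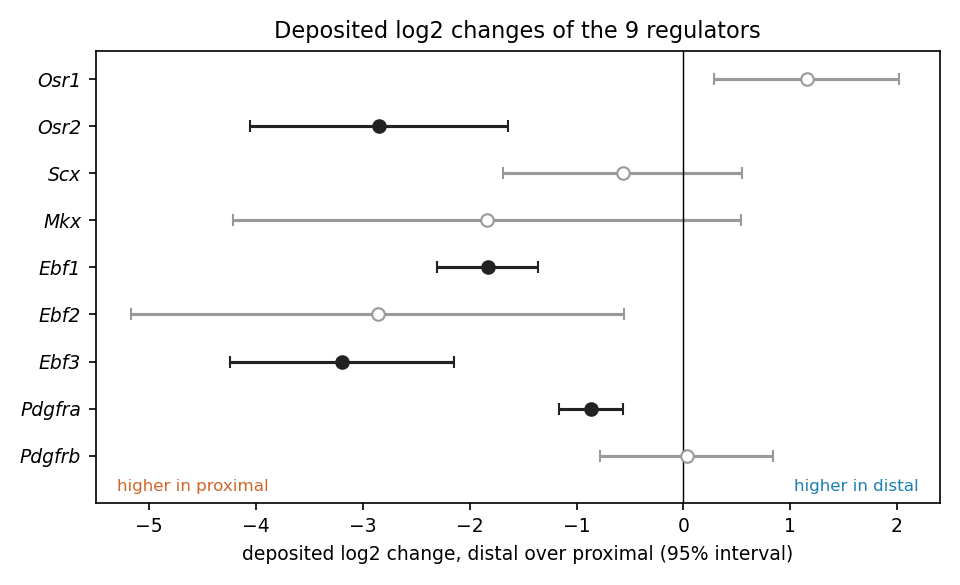
Deposited log2 change (distal over proximal, x axis) of the 9 genes (y axis), with 95% intervals from the deposited standard errors. Filled points passed an adjusted p of 0.05 and open points did not. The called genes lie between -3.19 for Ebf3 and -0.86 for Pdgfra, and Osr1 at 1.15 is the gene farthest to the right.

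The deposited table gives 1 mean per gene, but the mean, the log2 change and its standard error together fix the whole-number counts of a gene with few reads. For 6 of the 9 genes (Osr1, Osr2, Scx, Mkx, Ebf2 and Ebf3) exactly 1 set of 10 region counts, among those searched, matched all 3 values. For Ebf3, which had the most candidates, 614891 searched sets matched the mean and 1 of these also gave the deposited log2 change. Osr2 and Ebf3 have higher means than the genes on which this recovery was tested by simulation. Region counts were not recovered for Ebf1, Pdgfra and Pdgfrb, whose counts are too high for this search, and their counts per side were computed instead. Below, the regions of each side are listed from the deepest to the shallowest.

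The 2 Osr genes had opposite signs. Osr2 (ENSMUSG00000022330, GRCm38 chr15:35296098-35303305, plus strand) had 2, 3, 0, 1 and 1 counts in the distal regions and 25, 42, 34, 32 and 29 in the proximal regions. Every proximal region was above every distal region. Divided by the size factors, Osr2 stood at 2.34 ± 1.58 normalized counts in distal and 17.3 ± 4.03 in proximal (SD, n = 5 regions each). The lowest proximal region had 10.3 and the highest distal region 4.30. The authors' deposited log2 change was -2.85 (standard error 0.61, adjusted p 0.000814), a 7.2-fold higher level in proximal. An exact two-sided permutation test over the regions gave p = 0.00794, the smallest that 5 against 5 allows.

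Osr1 (ENSMUSG00000048387, chr12:9570116-9581500, plus strand) had 9, 7, 3, 3 and 6 counts in the distal regions and 12, 8, 10, 7 and 5 in the proximal regions, which were sequenced more deeply. After division by the size factors, the distal regions stood at 10.8, 10.0, 5.37, 5.88 and 18.3 normalized counts and the proximal regions at 4.96, 3.62, 5.11, 4.47 and 3.33. The lowest distal region was thus only slightly above the highest proximal one. The means were 10.1 ± 5.18 in distal and 4.30 ± 0.796 in proximal (SD, n = 5 each). The distal spread came largely from the shallowest region, where 6 counts gave 18.3. The authors' deposited log2 change of 1.15 (standard error 0.44) had an unadjusted p of 0.00908 and an adjusted p of 0.383, so Osr1 was not called. The exact permutation p over regions was 0.00794.

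**Figure D2:**
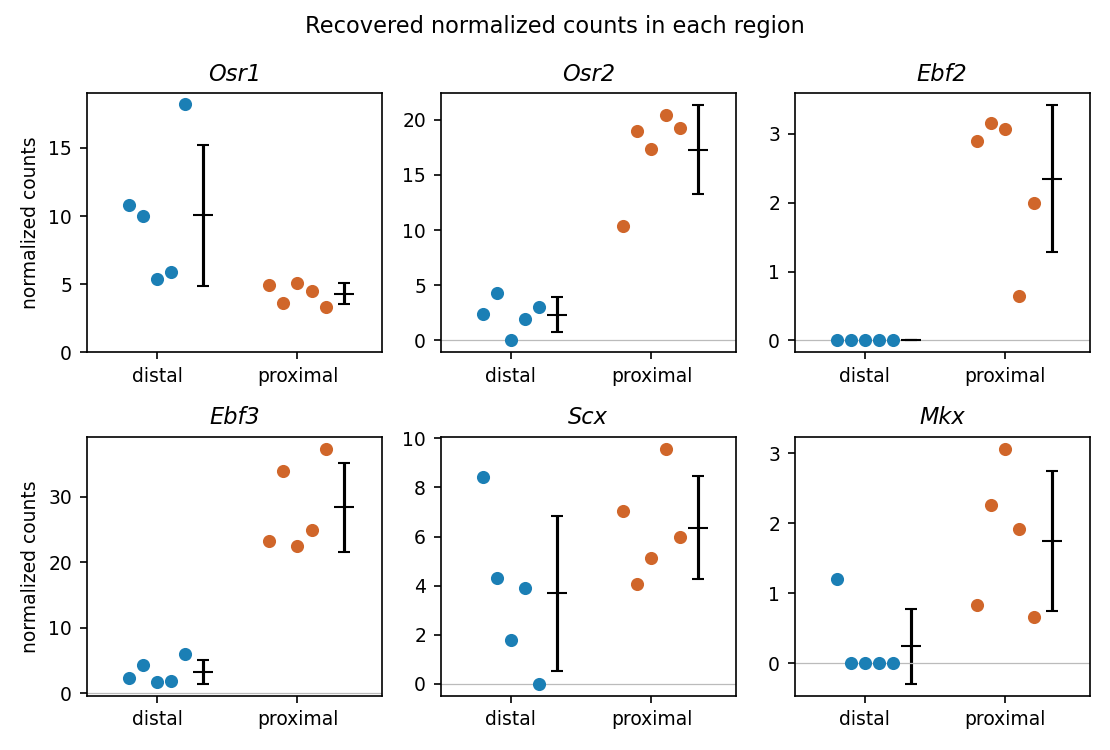
Normalized counts (y axis) of 6 genes in the 5 distal (blue) and 5 proximal (orange) regions, 1 point per region from deepest to shallowest, with the mean and SD beside them. Osr2 and Ebf3 are high in every proximal region, Ebf2 is at 0 in all 5 distal regions, Osr1 is higher in distal, and the points of Scx and Mkx overlap between the sides.

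The share of Osr1 among the counts of both Osr genes does not depend on the size factors. This share was examined after the values were seen. It was 81.8, 70, 100, 75 and 85.7% in the distal regions and 32.4, 16, 22.7, 17.9 and 14.7% in the proximal regions. Osr1 was the more frequent of the pair in each distal region and the less frequent in each proximal one. The mean over regions was 82.5 ± 11.5% in distal and 20.8 ± 7.2% in proximal (SD, n = 5 each). No test is given, since both genes already separated by side in opposite directions when the share was formed. Pooled, Osr1 gave 28 of 35 counts in distal (80.0%, 95% Wilson interval 64.1 to 90.0%) and 42 of 204 in proximal (20.6%, interval 15.6 to 26.7%).

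**Figure D3:**
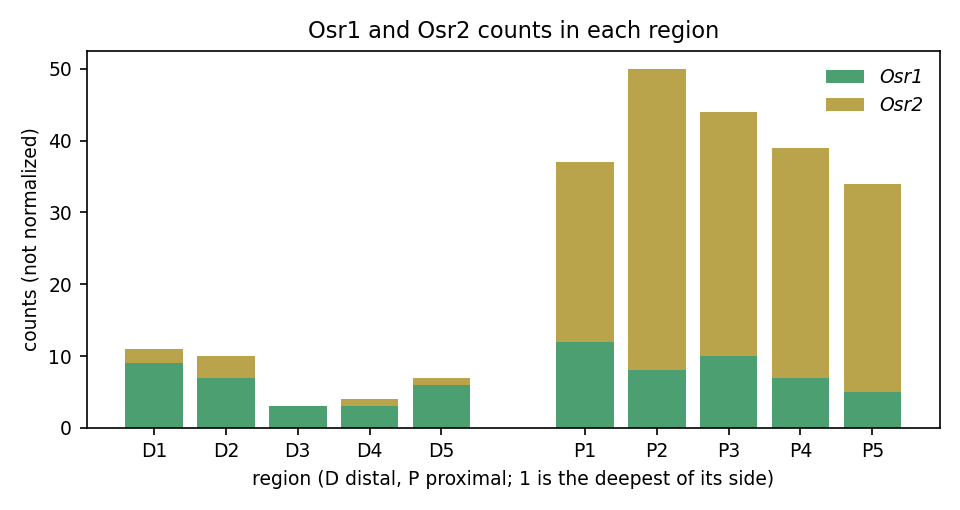
Counts of Osr1 (green) and Osr2 (yellow) stacked for each region (x axis, D distal and P proximal, 1 the deepest of its side), without normalization. Osr1 fills at least 70% of each distal bar and at most 32.4% of each proximal bar.

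All 3 Ebf genes had negative log2 changes, and Ebf1 and Ebf3 were called. Ebf3 (ENSMUSG00000010476, chr7:137193673-137314445, minus strand) had 2, 3, 1, 1 and 2 counts in the distal regions and 56, 75, 44, 39 and 56 in the proximal regions. Each distal region held at least 1 count, so Ebf3 was low there but present. Its normalized level was 3.31 ± 1.85 in distal, at most 6.09, and 28.4 ± 6.78 in proximal, at least 22.5 (SD, n = 5 each). The log2 change in the authors' deposited table was -3.19 (standard error 0.53, adjusted p 1.27e-06), a 9.15-fold higher level in proximal. This is the largest called difference among the 9 genes. The exact permutation p over regions was 0.00794.

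Ebf1 (ENSMUSG00000057098, chr11:44617317-45008091, plus strand) is the founding member of the family and the B-lineage factor. Its deposited values amount to some 94.0 distal and 1102 proximal counts, or computed normalized means of 32.1 and 114. The authors' deposited log2 change was -1.83 (standard error 0.24, adjusted p 2.79e-11), a 3.56-fold higher level in proximal. Its 95% interval ran from -2.30 to -1.36 on the log2 scale. Side counts computed in this way were compared with recovered ones in genes with 3 or more mean counts. They differed by at most 12.0% in proximal (31 genes) and 13.4% in distal (14 genes with at least 10 counts). Below 10 distal counts the error can be larger, as for Myl1, computed at 1.43 and recovered at 1. The compared genes had means up to 15.8 (Ebf3), below those of Ebf1, Pdgfra and Pdgfrb.

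Ebf2 (ENSMUSG00000022053, chr14:67233292-67430918, plus strand), known for its role in brown fat precursors, was rare. No count fell in any distal region, and the proximal regions held 7, 7, 6, 1 and 3. With distal set at the limit of 3 counts over the group, the pooled level of Ebf2 was at least 2.43-fold higher in proximal. The exact 95% interval of the pooled ratio, which also covers counting error in proximal, starts at 1.83. The deposited log2 change of -2.86 (standard error 1.18) depends on how the fit treats a side without counts and is no bound. Its unadjusted p was 0.0150 and its adjusted p 0.507, so it was not called. The exact permutation p over regions was 0.00794, but with so few counts the lower distal depth also favours zeros in distal. Ebf4, a relative taken from the companion lists, was low on both sides, with 6 distal and 16 proximal counts and a deposited log2 change of 0.27 (adjusted p 0.991).

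Some of these counts could include reads of overlapping transcripts, since the labels do not say whether counting used the strand. GENCODE M21 places the antisense transcript Gm10860 over 424 exonic bases of Ebf2, Gm45278 over 355 of Ebf3 and Gm42802 over 456 of Pdgfra, which also shares 166 with Gm42803 and 30 with the same-strand Mir7025. A noncoding gene on the same strand covers 201 exonic bases of Mkx, whose reads counting by strand would not separate. Osr2 and Pdgfrb overlap no other annotated gene there. Apart from the overlapping Gm10860, the last 300 bases of the coding transcripts of the 9 genes matched no other gene over 200 bases at 95% identity.

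RefSeq promoter sequences (GRCm38.p6, from 250 bases before to 50 after the annotated start) are given for 3 of the 9 genes. These 3 are called genes that were higher in proximal together. The choice of these 3 does not show that the other genes lack such sequences. No uncalled gene is among them, so motifs cannot be compared between called and uncalled genes. They are shown so that the sequence upstream of each can be read. Ebf1 has a second annotated start whose sequence is not shown. Capitals mark matches to any of 4 motifs, searched on both strands: the EBF consensus TCCCNNGGGA, the OSR site ACAGTAGC, the E-box CANNTG bound by basic helix-loop-helix factors such as Scx, and the CArG box bound by serum response factor.
Ebf1, chr11:44619978-44620277, plus strand: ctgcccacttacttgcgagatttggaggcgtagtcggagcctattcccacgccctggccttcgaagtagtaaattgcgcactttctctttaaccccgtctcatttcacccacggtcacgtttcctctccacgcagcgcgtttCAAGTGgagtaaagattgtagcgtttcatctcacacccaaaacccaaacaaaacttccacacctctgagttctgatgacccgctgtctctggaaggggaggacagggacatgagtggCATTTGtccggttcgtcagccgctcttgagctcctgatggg
Ebf3, chr7:137314396-137314695, minus strand: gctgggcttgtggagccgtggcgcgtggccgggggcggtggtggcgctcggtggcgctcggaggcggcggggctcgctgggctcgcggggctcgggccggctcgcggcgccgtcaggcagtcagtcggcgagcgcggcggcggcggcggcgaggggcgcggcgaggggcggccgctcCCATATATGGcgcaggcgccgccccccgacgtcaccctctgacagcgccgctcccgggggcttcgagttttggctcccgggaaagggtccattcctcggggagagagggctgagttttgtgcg
Pdgfra, chr5:75152001-75152300, plus strand: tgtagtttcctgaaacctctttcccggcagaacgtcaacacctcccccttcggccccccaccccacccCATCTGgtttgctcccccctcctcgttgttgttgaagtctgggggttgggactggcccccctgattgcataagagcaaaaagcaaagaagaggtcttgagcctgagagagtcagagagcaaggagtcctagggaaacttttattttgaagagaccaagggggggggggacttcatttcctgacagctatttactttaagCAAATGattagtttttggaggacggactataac
The Ebf3 sequence was 77.0% G and C and held 1 CArG box, whose first base lies at position -73 from the start site. The CArG box was added to the search after that sequence had been read, and 1.63% of all 32851 promoter sequences hold one. The Ebf1 and Pdgfra sequences shown, 53.0% and 51.0% G and C, held 2 E-boxes each, a motif present in 72.3% of all promoters. The sequence at the other start of Ebf1, 36.7% G and C, held 0 E-boxes. None of the 3 sequences, nor the second one of Ebf1, matched the EBF consensus (in 0.904% of all promoters) or the OSR site (in 0.898%), which says only that these letters are not in these windows.

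The tendon factors did not pass the test. Scx (ENSMUSG00000034161, chr15:76457452-76459458, plus strand) had 7, 3, 1, 2 and 0 counts in the distal regions and 17, 9, 10, 15 and 9 in the proximal regions. The normalized values overlapped between the sides, with 3.68 ± 3.16 in distal and 6.36 ± 2.10 in proximal (SD, n = 5 each). The deepest distal region, at 8.41, was above 4 of the 5 proximal ones. The authors' deposited log2 change was -0.57 (standard error 0.57, adjusted p 0.991), and its 95% interval from -1.68 to 0.55 covers both directions. The exact permutation p over regions was 0.159. Without the deepest distal region it was 0.0238, and the log2 ratio of the region means was -1.35 in place of -0.79. Scx lies within Bop1, a gene on the opposite strand with which it shares no exon, and Bop1 had a deposited log2 change of 1.28 (adjusted p 0.991).

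Mkx (ENSMUSG00000061013, chr18:6934518-7004780, minus strand) gave 1 count in the deepest distal region and none in the other distal regions, against 2, 5, 6, 3 and 1 in the proximal regions. Pooled, its level was 5.16 times higher in proximal, with a 95% exact interval from 0.808 to 216 that covers equal levels. Its deposited log2 change was -1.84 (standard error 1.21, adjusted p 0.991). The exact permutation p over regions was 0.0238, with the same limit of depth as for Ebf2.

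Of the PDGF receptors, Pdgfra was called and Pdgfrb was not. Pdgfra (ENSMUSG00000029231, chr5:75152292-75198215, plus strand) had the highest mean of the 9 genes, 99.2 normalized counts, which is above 99.0% of all genes. The deposited values of Pdgfra amount to some 206 distal and 1236 proximal counts, or normalized means of 70.3 and 128. The authors' deposited log2 change was -0.86 (standard error 0.15, adjusted p 3.94e-06), a 1.82-fold higher level in proximal. Pdgfra was thus abundant on both sides, and its difference was the smallest of the 4 called genes.

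Pdgfrb (ENSMUSG00000024620, chr18:61045150-61085061, plus strand) had about 60.6 distal and 195 proximal counts, or normalized means of 20.7 and 20.2. Its deposited log2 change was 0.03 (standard error 0.41, adjusted p 0.9998). The 95% interval ran from -0.78 to 0.84. The difference between the changes of the receptors was not tested. The standard error was above that of 95% of the 2983 genes with a mean within a factor of 2 of its own, whose median was 0.31. The sign of this small change turned on centring, to -0.04.

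The other genes of the PDGF pathway, from a list of 20 ligands, adaptors and ligand-processing enzymes, were not called in either direction (0 of 20), and their median log2 change was -0.05. At an unadjusted p of 0.05, 3 of them passed. The ligand gene Pdgfa had 4 distal and 48 proximal counts and a deposited log2 change of -1.89 (unadjusted p 0.0315, adjusted p 0.750). Pdgfc, another ligand of the receptor encoded by Pdgfra, had a deposited log2 change of -1.05 (unadjusted p 0.00555, adjusted p 0.285), and Furin, a protease that cuts growth factor precursors, one of -0.47 (adjusted p 0.772). Pdgfb, the ligand most used by the other receptor, had 2 counts in all, both in proximal.

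Genes of irregular connective tissue were called in 8 of 26 cases, all higher in proximal, where 0.582% of all genes were. The companion lists were chosen with earlier results of these data known, so this contrast is not an independent test. All 8 called genes also had means above that of the median gene. The share over all genes is therefore not one at like expression. Fibrillar collagen genes Col1a1, Col1a2 and Col3a1 had deposited log2 changes of -1.19, -0.59 and -1.62, with adjusted p of 4.54e-12, 0.0301 and 0.00820. Col6a1 and Col6a3, which encode chains of the beaded-filament collagen around muscle fibres, stood at -1.50 and -3.61. Fbn2, a microfibril gene, had -0.84, Dlk1, a Notch-ligand-like growth regulator, -2.85, and the forelimb factor Tbx5 -1.41 (adjusted p 0.00199). The median of the list was -0.80, and -0.78 with genes at 3 counts or fewer on a side held at 3 counts. Tcf4 encodes an E protein and is not Tcf7l2, whose protein marks muscle connective tissue and which was not on the list. Its deposited log2 change was 0.25 with an adjusted p of 0.506. Tbx3, a limb T-box gene, had 3 distal and 57 proximal counts (adjusted p 0.365). Eln and Cxcl12 had -1.98 and -2.40 with adjusted p of 0.0651 and 0.103, and Eln passed, at 0.0434, once all log2 changes were centred on the median gene.

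Of the tendon and ligament list, 19 of 20 genes were in the table and 2 were called, both higher in proximal. These were Col5a1 (deposited log2 change -1.04, adjusted p 1.23e-05), a fibril-initiating collagen gene, and Tnc (-1.81, adjusted p 0.00350), a matrix glycoprotein gene of tendon and perichondrium. Genes of differentiated tendon were near the limit of detection, with 1 count for Tnmd, 2 for Fmod and 5 for Thbs4 over all regions, all in proximal. Bgn and Six2 had deposited log2 changes of -1.99 and -1.41 with adjusted p of 0.0648 and 0.116, and Bgn passed, at 0.0434, with the same centring. The median of the list was -0.97, and -0.28 with genes at 3 counts or fewer on a side held at 3 counts and those low on both sides left out. Held in this way, Thbs4, with 0 distal and 5 proximal counts, stands at a ratio of 0.506 proximal over distal. The value of -0.28 thus depends on genes too rare to show a direction. Over members with a mean of at least 1 the median was -1.11.

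Among 14 genes of TGF-beta signalling, which induces Scx in tendon progenitors, 1 was called. Tgfb3, a ligand gene, had a deposited log2 change of -1.60 (standard error 0.44, adjusted p 0.0335). Ltbp1, Tgfbr2 and Smad4 had -0.50, -0.93 and 0.41, with adjusted p of 0.379, 0.656 and 0.869. No gene was called among 6 relatives and partners of the Ebf factors, whose median was 0.06. There, 0 genes had an unadjusted p under 0.05, and Tcf12, Zfp423 and Ebf4 had the smallest p-values, with deposited log2 changes of -0.32, 0.36 and 0.27. No gene was called among 12 relatives and corepressors of the Osr and Mkx factors in the table. Tle1 and Tle3, which encode Groucho-type corepressors, had opposite values of -1.30 (adjusted p 0.0566) and 0.81 (adjusted p 0.366) there, with 2 genes of the list at an unadjusted p under 0.05. Tle1 passed, at an adjusted p of 0.0306, once all log2 changes were centred on the median gene. Irx5, a homeobox gene related to Mkx, had 1 distal and 22 proximal counts (adjusted p 0.935).

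**Figure D4:**
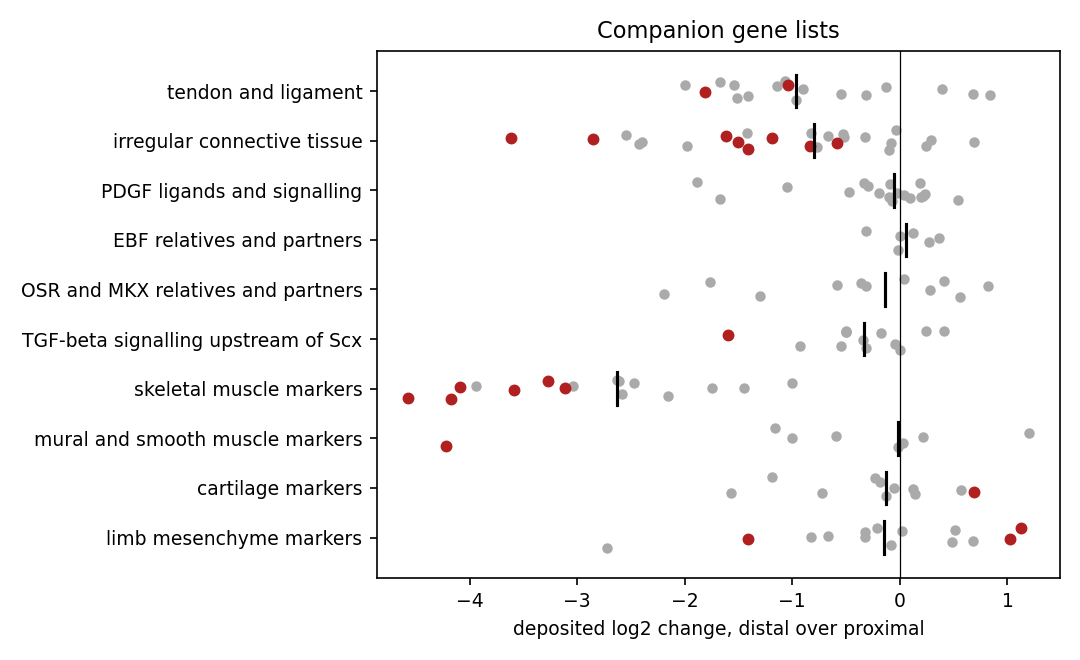
Deposited log2 change (distal over proximal, x axis) of the members of 10 companion lists (y axis), 1 point per gene, red where the adjusted p was under 0.05 and grey otherwise, with a black bar at the median of each list. Genes at 3 counts or fewer on both sides are counted in the median and not drawn. The red points of both connective tissue lists lie left of 0, and the PDGF and EBF lists hold no red point.

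Among markers of other cell types, those of skeletal muscle were called in 6 of 17 cases, all higher in proximal, with a median log2 change of -2.63 (-2.26 with low genes held at 3 counts). Called members were Actc1 (-3.11), Myh3 (-3.27), Myl1 (-4.57), Tnnt1 (-4.09), Myog (-4.17) and Acta1 (-3.59). The first 2 had about 24.2 and 7.38 distal counts, and the other 4 had 1, 1, 1 and 2. Myl4, Pax3, Myf5, Tnnc1, Des, Cdh15 and Pax7 had no distal count, against 51, 19, 27, 20, 9, 12 and 2 in proximal. Of these, Des and Pax7 were too rare to show a direction at the lower distal depth. Myod1 had 1 count in distal and 32 in proximal. Summed over the 15 markers with recovered counts, the distal regions held 0, 12.9, 1.79, 11.8 and 3.04 normalized counts and the proximal regions 77.4, 101, 51.1, 40.2 and 80.5.

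In the plot of these sums, Osr2 and Ebf3 are set beside the muscle markers. The distal regions with the highest muscle sums, at 12.9 and 11.8, had Osr2 at 4.30 and 1.96 and Ebf3 at 4.30 and 1.96 normalized counts, since both genes had 3 counts in the first and 1 in the second. In the proximal regions, from the lowest muscle sum to the highest, Osr2 stood at 20.4, 17.4, 10.3, 19.3 and 19.0 normalized counts. Ebf3 stood at 24.9, 22.5, 23.2, 37.3 and 33.9 in the same order, with its highest values in the regions with the highest muscle sums. The part of muscle cells in the differences of the connective tissue genes was not tested.

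**Figure D5:**
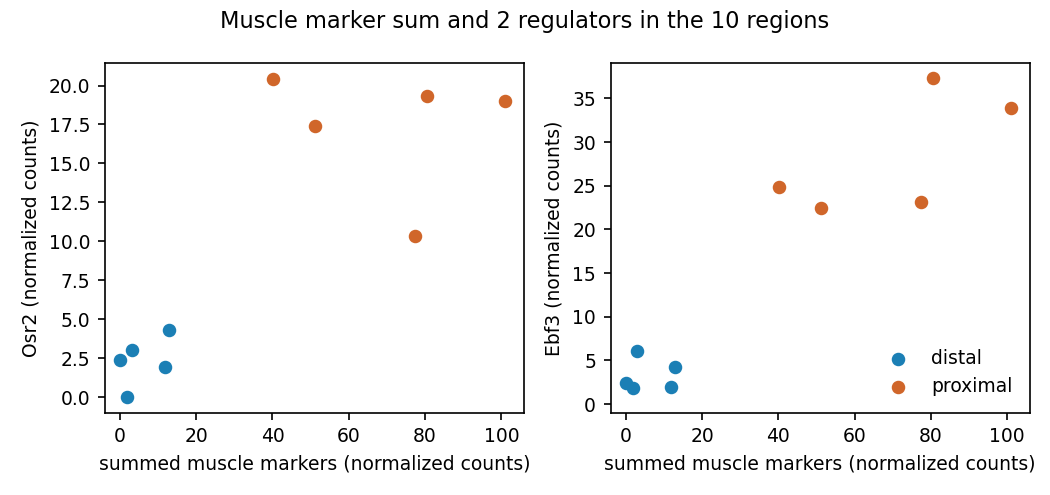
Osr2 (left, y axis) and Ebf3 (right, y axis) against the summed normalized counts of 15 muscle markers (x axis) in the 5 distal (blue) and 5 proximal (orange) regions. The sides form separate groups on both axes, with muscle sums up to 12.9 in distal and from 40.2 in proximal.

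Of 9 mural and smooth muscle markers in the table, 1 was called, Acta2, with a deposited log2 change of -4.22 and about 3.9 distal and 240 proximal counts. Acta2 is also used by immature skeletal muscle. Of the 9, 5 had negative changes. Besides Acta2 these were Tagln at -1.16 (2 distal and 16 proximal counts), Cnn1 with 0 distal and 6 proximal counts, Anpep at -0.59 and Mcam at -0.02. Cspg4 and Notch3 stood at 0.21 and 0.03, and the pericyte marker Rgs5 had 4 distal and 6 proximal counts. Kcnj8 and Myh11 were not in the table, and Abcc9 had 1 count in all. The sum over the 6 markers with recovered counts was 6.01 to 12.2 normalized counts in distal and 7.02 to 14.6 in proximal, so these ranges overlapped. Endothelial, surface ectoderm, blood and glia or neuron markers had no called gene among 6, 4, 6 and 7 in the table. In that order, their summed normalized means were 2.58, 0.678, 1.70 and 5.29 in distal. In proximal they were 1.36, 0.933, 3.91 and 7.69. At such low levels, the lack of a call says little about these cell types. Of 11 cartilage markers, 1 was called, Sox9 at 0.69, while 7 had negative changes and the median of the list was -0.13. The limb mesenchyme list had 2 called genes higher in distal (Msx1 and Lhx2) and Tbx5 higher in proximal.

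Last, the genes nearest to each called gene were listed, as those with the closest deposited log2 change among genes with a mean within a factor of 2 of its own. Likeness was measured on this 1 comparison only. For Osr2 they were Dlk1 (-2.85), Col8a2 (-2.85), Neb (-2.77), Dact1 (-2.77) and Epha3 (-3.0), chosen among 4061 genes. Ebf3 had Myh3 (-3.27), Mab21l2 (-3.08), Gas2 (-3.05), Epha3 (-3.0) and Dlk1 (-2.85), among 3445 genes. For Ebf1 the nearest were Zfhx4 (-1.86), Kctd12 (-1.72), Col3a1 (-1.62), Peg10 (-1.45) and Sparc (-1.21), among 768. Pdgfra had Fbn2 (-0.84), Adamts1 (-0.83), Hoxa10 (-0.83), Jun (-0.81) and Boc (-0.80), among 486. Dlk1 and Epha3 were near both Osr2 and Ebf3. Neb and Hoxa10 were not called, with adjusted p of 0.0692 and 0.0609, and Hoxa10 passed, at 0.0243, with centring.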

How the data were processed

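Per the labels, 2 libraries were sequenced, each pooled from 5 barcoded regions. Per the file headers, the table analysed is the authors' distal-versus-proximal comparison with DESeq2 columns. Its mean is a signal of normalized counts averaged by the authors over the regions. The deposited log2 changes and standard errors were fitted by the authors, their statistic is a deposited score, and the deposited p-values and adjusted p-values are the authors'. The builds mm10 and GRCm38 come from the submitters' processing notes. The aligner and counter are not given in the sources used here.

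Calls are genes with a deposited adjusted p under 0.05 from the authors' DESeq2 test. Size factors were read from means shared by at least 20 genes with 1 count. A region was taken as distal or proximal by the direction of the deposited log2 change of genes with 2 counts in it against those with 1. All 1523 distinct means up to 0.8 then gave exactly 1 set of counts. For a gene, all sets of region counts matching the mean were listed (for means above 2, within ranges set by the log2 change and standard error). Each was refitted with the negative binomial model, at the dispersion that gives the deposited standard error, and kept if the log2 change agreed within 3e-09. Tested on simulated data (120 sets of counts with means up to 8), the search recovered 75.0% and gave 0 wrong sets. Higher means were not simulated. Positions are from GENCODE M21. Python 3.11.15, scipy 1.17.1 and BLAST 2.17.0 were used. The named genes are the 9 genes, called members of the companion lists, the 3 uncalled members of each list with the smallest p, and the 5 nearest genes of each called gene. One gene that this rule names is not reported here. Some other list members were named after their values were seen. The genes and lists were chosen with earlier results of these data known. Alternatives covered the threshold, the adjustment, centring, the estimator, the mean filter and leaving out each region.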

Additional observations from a re-analysis of the deposited data

Results flagged for a closer look

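In 1 of 11 groups of 5 regions that were checked for a region far from the rest, the highest value stood apart. It was the 1.20 normalized counts of Mkx in the deepest distal region, with the other distal regions at 0. This is a single count, and a group in which only 1 region holds counts is always flagged. The rate of about 1 group in 20 flagged by chance does not hold for such a group.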

How the results depend on the processing

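The number of called genes stayed at 4 with a threshold of 0.01 or 0.1 and with adjustment over the table, and was 3 with genes of a mean of at least 10 or a log2 change of at least 1. Over all results, 130 of 133 alternatives kept the direction and the call, or moved a count or a value without a test only slightly. Among 27 alternative values of the 9 log2 changes, 26 were of this kind, and the exception was Pdgfrb, at -0.0351 when the median over all genes (0.07) was subtracted. Leaving out each region in turn (for Mkx 9 of the 10, since without the deepest distal region its distal side is at 0), the log2 ratio of region means ranged from -3.44 to -2.94 for Ebf3, -3.22 to -2.56 for Osr2, 0.90 to 1.39 for Osr1, -3.07 to -2.54 for Mkx and -1.35 to -0.47 for Scx. In these, only Scx crossed the limit of 0.05, with exact permutation p from 0.0238 to 0.310. Called members of the list of Osr and Mkx relatives moved from 0 to 1 with centring, which also brought Eln, Bgn, Myl4 and Hoxa10 under the limit. Centring also moved the called members of the tendon and ligament list from 2 to 3. The median of the Ebf relatives changed sign with it, from 0.06 to -0.0068. Both were held as slight moves. Ratios could not be computed for Ebf2, nor by medians for Mkx, because the distal side was at 0. No paired analysis was possible because the region counts carry no organoid number. Distal depth limits the low genes most.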
